A study of Mus musculus with 4 samples.

Results

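The 10 genes described here are subunits of the transcription factor NF-κB and the inhibitors that its own activity switches on: Nfkbia, Nfkbie, Nfkbiz, Nfkbid, Bcl3, Tnfaip3, Nfkb1, Nfkb2, Rel and Relb. They are 10 of the 32544 genes counted. They were chosen by symbol after several of them had been seen to be lower in the YAP1 heterozygote libraries of the same data. The YAP1 heterozygote values beside the WT values are therefore a description, and no p-value is given for a member. The 4 libraries were made by droplet single-cell RNA sequencing of the 3′ ends of transcripts, from flow-sorted nucleated bone marrow cells of mice aged 10 weeks. They form 2 groups: YAP1 heterozygote mice, which carry 1 altered copy of Yap1, a transcriptional coactivator held in check by Hippo signalling (2 libraries), and WT mice (2 libraries). No other allele or treatment is given for either group, and the sources used here give neither the construction of the allele nor the sort gates. The labels do not say how many animals stand behind a library, so the adjusted p-values measure the spread between these libraries. The 2 libraries of each genotype differed in the sex-linked transcripts Xist and Ddx3y, so they came from different animals. Their spread therefore includes any difference between the sexes, and part of it may be technical. The study is on platelet formation in immune thrombocytopenia.

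NF-κB dimers wait in the cytoplasm, bound by IκB proteins. A signal from a Toll-like, interleukin or tumour necrosis factor receptor makes the IκB kinase mark the inhibitor for destruction, and the freed dimer enters the nucleus and binds κB sites in DNA. Among the genes it switches on are its own brakes, the IκB genes and the ubiquitin editor A20 (Tnfaip3), so their transcripts are widely used as a readout of recent NF-κB activity. In bone marrow the pathway is known for its part in the inflammatory response of myeloid cells and in the survival of B cells.

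Each library held between 112806900 and 119855112 UMIs, and 10570 and 13220 YAP1 heterozygote cells and 12534 and 11363 WT cells were kept, with 27 to 62 barcodes shared between any pair of libraries. Yap1 itself was nearly absent, with 0 and 6 UMIs in YAP1 heterozygote cells and 6 and 7 UMIs in WT cells, and a 3′ count does not separate alleles, so it checks no label. Xist was at 864 CPM (a gene's UMIs per 1000000 UMIs of the cells summed) in YAP1 heterozygote replicate 2 and 885 CPM in WT replicate 2, while Ddx3y marked replicate 1 of each genotype with 67.8 CPM in YAP1 heterozygote and 100.3 CPM in WT cells. Each genotype thus had a male-type library, replicate 1, and a female-type library, replicate 2. Cells were clustered without the 10 genes and without the pathway lists used below, and 17 classes named from marker genes had at least 20 cells in each library. Il1b and Cxcl2 led the largest mature neutrophil-like cluster, Ccl4 and Ccl3 the larger basophil or mast cell-like cluster, and C1qb, C1qa and C1qc stood among the leading genes of the conventional dendritic cell-like class.

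WT replicate 1 stood apart from the other libraries in these genes. Of the 170 pairs of a member and a class, 160 had enough UMIs to be fitted. WT replicate 1 was the highest of the 4 libraries in 125 of these, against 34.1% of all genes fitted in the same classes. Most differences below are therefore also given without that library, which leaves WT replicate 2 alone in its group. Those values set a male-type and a female-type YAP1 heterozygote library against a female-type WT library alone, so sex is not balanced in them. The log2 fold change (YAP1 heterozygote over WT, edgeR) was below 0 in 135 of the 160 pairs with all libraries, against 49.5% of all genes. Without WT replicate 1, for which no share over all genes is at hand, it was below 0 in 112 of the 160. Its median over the pairs was -0.52 with all libraries and -0.22 without WT replicate 1. Within replicate 1 it was below 0 in 138 pairs, with a median of -0.65, and within replicate 2 in 123 pairs, with a median of -0.24.

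**Figure D1:**
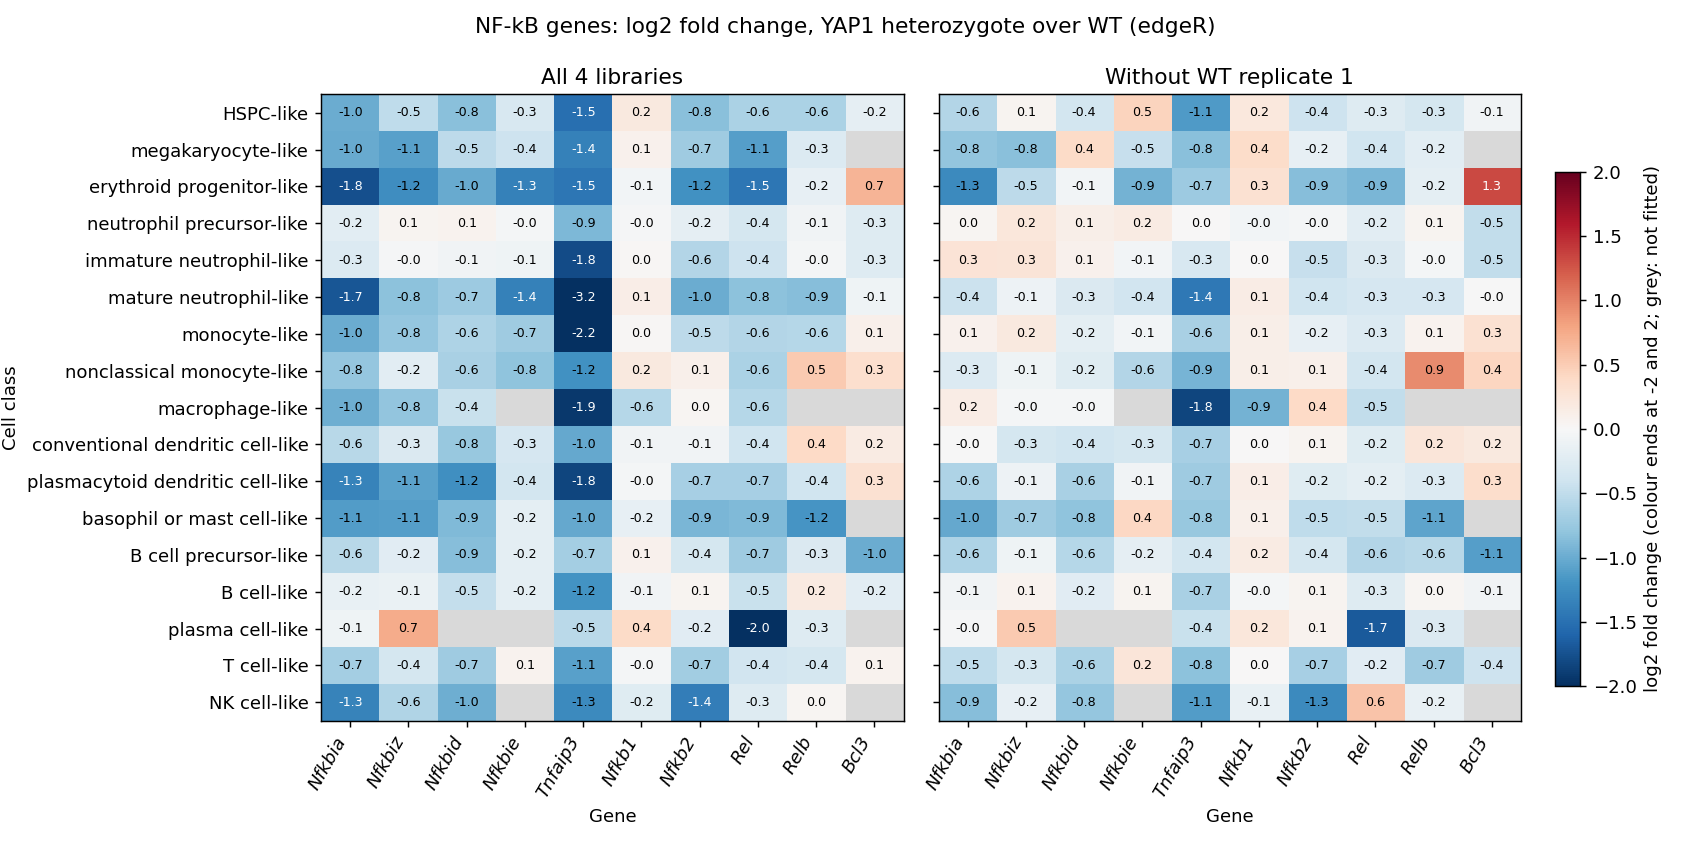
Log2 fold change (YAP1 heterozygote over WT, edgeR) of the 10 genes, in columns, in 17 cell classes, in rows, with all 4 libraries on the left and without WT replicate 1 on the right; blue is lower in YAP1 heterozygote cells and grey was not fitted. Tnfaip3 and Rel are blue in every class on the left, Nfkb1 is near white, and most myeloid classes are paler on the right.

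The map of fold changes shows 3 kinds of gene. Tnfaip3, Rel and Nfkbia were below 0 in all 17 classes. Nfkbiz, Nfkbid, Nfkbie, Nfkb2 and Relb were below 0 in most, and Nfkb1 and Bcl3 lay on both sides of 0. Both YAP1 heterozygote libraries were below both WT libraries in 92 pairs and above them in 8, with 60 pairs overlapping, while 16.8% of all genes fitted had both YAP1 heterozygote libraries below and 15.2% had them above. In the edgeR fit over all genes of a class, 4 pairs were under an adjusted p of 0.05, all lower in YAP1 heterozygote cells. The genes were chosen on this contrast, so the count is a description and nothing is read from it. Of all genes fitted 0.0379% were called lower and 0.00785% higher. The 4 called pairs were Tnfaip3 in the NK cell-like, T cell-like and macrophage-like classes, where 0.103%, 0.175% and 0.109% of all genes were called lower, and Rel in the B cell precursor-like class, where 0.083% were. The NK call was lost without YAP1 heterozygote replicate 2, the macrophage call without either WT library, and the Rel call without WT replicate 1. Library totals in place of TMM scaling, doublets kept, or the top cell of each library left out also ended the NK call, and doublets kept, a 5% mitochondrial limit, Leiden resolution 2.0 or the top cell left out ended the macrophage call. Counts of pairs called with a library left out are not given, since no share over all genes is at hand for those fits.

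The start-site windows of the members are shown because NF-κB binds such sites in the promoters of its own inhibitors. RefSeq windows (GRCm38.p6, 250 bases before to 50 after a start site) were at hand for 7 of the 10 members, Nfkbia, Nfkbie, Nfkbid, Bcl3, Tnfaip3, Nfkb2 and Rel. A search for the kappaB consensus of 10 bases on both strands found a match in at least 1 window of all 7, in 9 of their 12 windows. Over all RefSeq windows at hand the share with a match was 4.51% of 32851 windows and 5.14% of 27025 genes. The 250 bases before the start site are printed for the main inhibitor, for another IκB gene and for the subunit Rel, 5′ to 3′ on the gene's strand, with the match in capitals:
Nfkbia (chr12:55492648-55492897, minus strand): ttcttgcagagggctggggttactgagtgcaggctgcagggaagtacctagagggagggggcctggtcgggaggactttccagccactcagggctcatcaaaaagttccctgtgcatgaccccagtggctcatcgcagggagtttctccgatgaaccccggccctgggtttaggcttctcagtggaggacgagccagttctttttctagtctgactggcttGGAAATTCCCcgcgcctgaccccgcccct
Nfkbie (chr17:45555450-45555699, plus strand): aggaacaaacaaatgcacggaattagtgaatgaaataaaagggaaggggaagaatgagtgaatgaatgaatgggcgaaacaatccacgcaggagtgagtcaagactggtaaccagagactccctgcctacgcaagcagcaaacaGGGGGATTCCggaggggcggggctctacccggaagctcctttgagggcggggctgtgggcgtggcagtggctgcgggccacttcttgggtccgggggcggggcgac
Rel (chr11:23770970-23771219, minus strand): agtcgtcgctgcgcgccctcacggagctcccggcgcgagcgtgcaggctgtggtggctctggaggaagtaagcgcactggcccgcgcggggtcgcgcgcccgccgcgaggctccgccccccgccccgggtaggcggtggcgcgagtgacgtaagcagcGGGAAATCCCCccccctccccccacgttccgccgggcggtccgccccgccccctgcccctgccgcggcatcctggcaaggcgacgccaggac
The Nfkbia match lies at bases -29 to -20 from the start site, the Nfkbie match at -106 to -97, and in Rel 3 overlapping matches fill bases -92 to -82. For the other members the match is printed with 9 bases on each side:
Tnfaip3 (chr10:19015517-19015544, minus strand): actcacgcgGGGACACCCCggggcggga
Tnfaip3 (chr10:19015404-19015431, minus strand): atttccatcGGAAATCCCCctgttggca
Nfkb2 (chr19:46304689-46304717, plus strand): gatcgtcacGGGAATTCCCCccctcgggg
Nfkb2 (chr19:46304717-46304744, plus strand): gggccgaaaGGGGCTTTCCcggctggag
Nfkbid (chr7:30422171-30422198, plus strand): ccccgccctGGGACTTCCCagagcacca
Nfkbid (chr7:30422216-30422243, plus strand): ggccgaacaGGAATTCCCCgtgcgcggg
Bcl3 (chr7:19822735-19822762, minus strand): cggcggcagGGGAAGTCCCgctgcccgg
The Tnfaip3 matches lie at -125 to -116 and -12 to -3, and the Nfkb2 matches printed at -39 to -29, where 3 overlap, and -11 to -2. The Nfkbid matches lie at -226 to -217 and -181 to -172 from a later start site of that gene. The Bcl3 match lies inside the transcript, at bases 3 to 12. A match is a run of letters and no measure of binding. Matches were found both in genes that were lower in most classes, such as Tnfaip3 and Rel, and in Bcl3, which was not.

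Nfkbia (chr12:55489410-55492647, minus strand) encodes IκBα, the inhibitor that is destroyed on signalling and made again by the freed dimer. Among the 17 fitted classes its WT level was highest in the basophil or mast cell-like class, whose lower WT library exceeded the higher WT library of every other fitted class. Its level there was 1666 and 1379 CPM in YAP1 heterozygote libraries and 3226 and 2962 CPM in WT libraries (log2 fold change -1.11, SE 0.16). The groups were far apart and the WT libraries lay close together, so that leaving out WT replicate 1 gave -1.03. This class had 264 and 151 YAP1 heterozygote and 314 and 215 WT cells.

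The same separation of both WT libraries from both YAP1 heterozygote libraries was seen for Nfkbia in lymphoid, progenitor and megakaryocyte-like cells. NK cell-like cells had 149 and 143 CPM in YAP1 heterozygote libraries and 468 and 257 CPM in WT libraries (-1.34, SE 0.25; -0.85 without WT replicate 1). T cell-like cells had 217 and 221 CPM in YAP1 heterozygote libraries and 396 and 309 CPM in WT libraries (-0.68, SE 0.14; -0.51 without WT replicate 1). The T cell difference was larger in the cluster led by Ccl5 and Il2rb, with 164 and 158 CPM in YAP1 heterozygote and 393 and 312 CPM in WT libraries, than in the cluster led by Cd8b1 and Tcf7, which overlapped at 309 and 302 CPM in YAP1 heterozygote and 404 and 305 CPM in WT libraries. B cell precursor-like cells had 277 and 306 CPM in YAP1 heterozygote libraries, against 421 and 438 CPM in WT libraries (-0.56, SE 0.13). Here WT replicate 2 was the higher WT library, and the value without WT replicate 1 was -0.62. In megakaryocyte-like cells, the platelet-forming cells, the levels were 127 and 121 CPM in YAP1 heterozygote and 289.9 and 211 CPM in WT libraries (-1.01, SE 0.15; -0.79 without WT replicate 1). HSPC-like cells, the stem and early progenitor cells, had 192 and 146 CPM in YAP1 heterozygote libraries and 421 and 249.3 CPM in WT libraries (-0.998, SE 0.20; -0.58 without WT replicate 1). In both classes WT replicate 2 lay between WT replicate 1 and the YAP1 heterozygote libraries. Erythroid progenitor-like cells had 88.8 and 109.7 CPM in YAP1 heterozygote libraries and 445 and 238 CPM in WT libraries, the lowest fold change of this gene (-1.76, SE 0.25; -1.27 without WT replicate 1). The 8 neutrophil transcripts set out below summed there to 5428 and 6198 CPM in YAP1 heterozygote and 8322 and 7209 CPM in WT libraries, with 7 of 8 lower in both YAP1 heterozygote libraries. The 20 immediate early genes summed to 868 and 816 CPM in YAP1 heterozygote and 1604 and 999 CPM in WT libraries, with 14 lower in both YAP1 heterozygote libraries and WT replicate 1 highest for 19. None was at 0, and their part in the Nfkbia difference was not tested. B cell-like cells differed little, with 248 and 254 CPM in YAP1 heterozygote and 299.6 and 257 CPM in WT libraries.

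In neutrophil, monocyte and dendritic cell classes the excess of Nfkbia lay largely in WT replicate 1. Mature neutrophil-like cells, the largest class, had 424 and 340.4 CPM in YAP1 heterozygote libraries and 2099 and 503 CPM in WT libraries, a 4.17-fold gap between the WT libraries. The fold change was -1.71 (SE 0.48), and -0.44 without WT replicate 1. Monocyte-like cells had 236 and 148 CPM in YAP1 heterozygote libraries, against 589 and 181 CPM in WT libraries. WT replicate 2 there lay between the YAP1 heterozygote libraries, and the fold change of -0.997 became 0.08 without WT replicate 1. Immature neutrophil-like cells (173 and 116 CPM in YAP1 heterozygote, 242 and 117 CPM in WT libraries) and conventional dendritic cell-like cells (360.1 and 341 CPM in YAP1 heterozygote, 737 and 349 CPM in WT libraries) overlapped in the same way. Plasmacytoid dendritic cell-like cells stood between these patterns, with 192 and 163 CPM in YAP1 heterozygote libraries and 622 and 275 CPM in WT libraries (-1.33; -0.62 without WT replicate 1). The 8 neutrophil transcripts used below as a sign of foreign RNA summed to 5275 and 3597 CPM in YAP1 heterozygote and 12834 and 4333 CPM in WT libraries of that class, highest in WT replicate 1 for 8 of 8 genes and none at 0. Their part in the difference was not tested. In the remaining classes, nonclassical monocyte-like, macrophage-like, neutrophil precursor-like and plasma cell-like, the fold changes were -0.78, -0.98, -0.22 and -0.09. Without WT replicate 1 they were -0.28, 0.15, 0.04 and -0.02.

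WT replicate 1 was the highest library in each of the 4 larger clusters of the mature neutrophil-like class. In the cluster led by Il1b and Cxcl2 Nfkbia was at 868 and 714 CPM in YAP1 heterozygote libraries and 4571 and 1281 CPM in WT libraries. In the cluster led by Retnlg and Mmp8 it was at 213 and 115 CPM in YAP1 heterozygote libraries and 748 and 157 CPM in WT libraries, where WT replicate 2 again fell between the YAP1 heterozygote libraries. The cluster led by interferon-induced genes such as Rsad2 and Isg15 had 559 and 432 CPM in YAP1 heterozygote libraries and 2482 and 754 CPM in WT libraries. A further cluster of 83 cells, led by Cxcl2, Il1b and Acod1, held 3 and 0 YAP1 heterozygote cells and 78 and 2 WT cells. Without it the mature neutrophil-like class had 423.9 and 340.4 CPM in YAP1 heterozygote libraries and 2143 and 502 CPM in WT libraries.

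**Figure D2:**
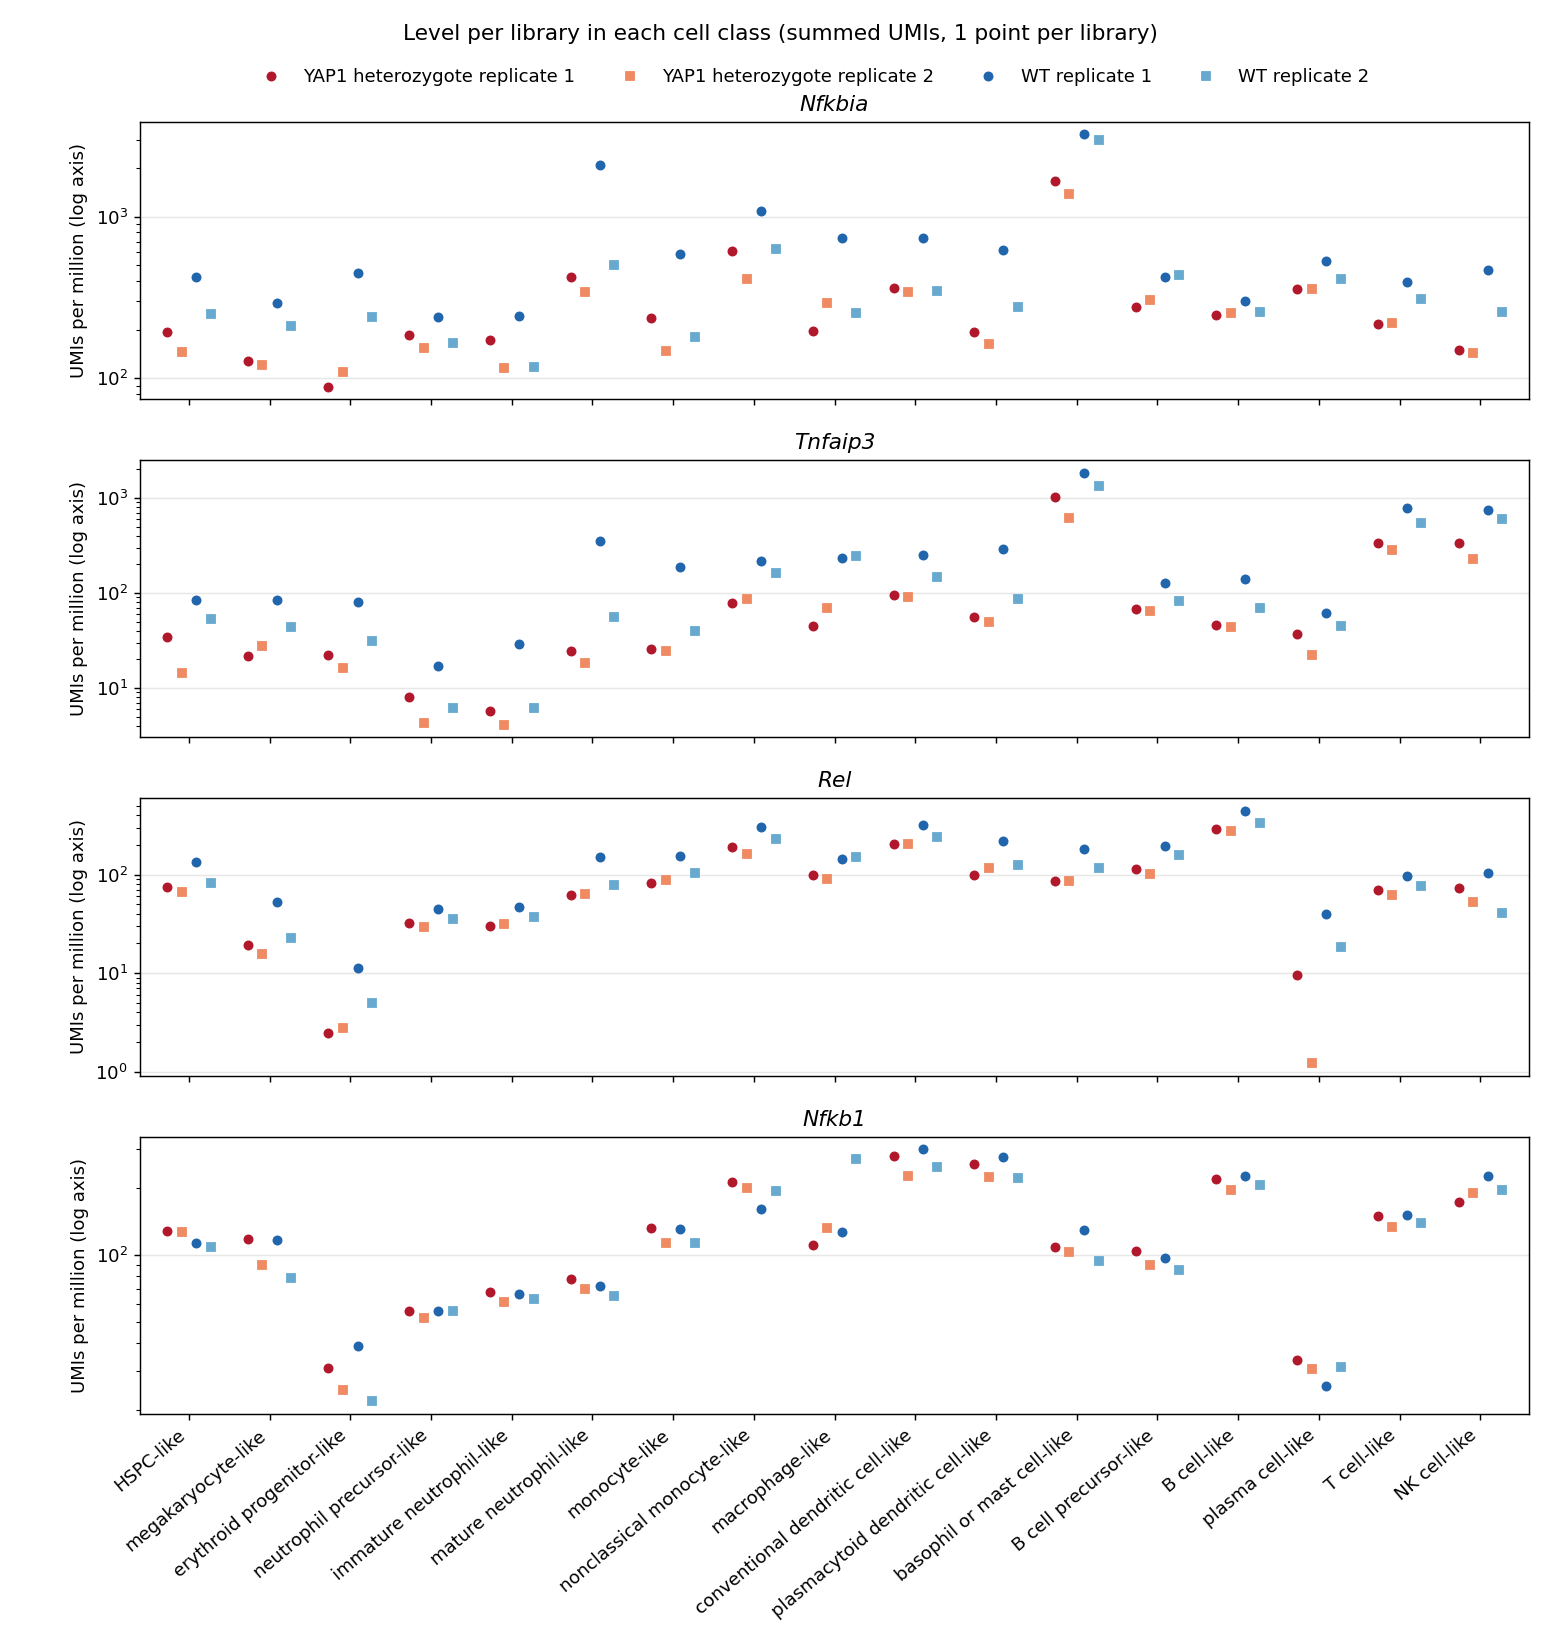
CPM on a log axis for Nfkbia, Tnfaip3, Rel and Nfkb1 in 17 cell classes, with 1 point per library: YAP1 heterozygote in red and orange, WT in dark and light blue (circles replicate 1, squares replicate 2). In the basophil or mast cell-like class both WT points of Nfkbia (3226 and 2962) stand above both YAP1 heterozygote points (1666 and 1379), whereas in monocyte-like cells only WT replicate 1 does, and the 4 points of Nfkb1 lie together in most classes.

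Nfkbie (chr17:45555703-45563169, plus strand) encodes IκBε, an inhibitor best known in B cells for holding Rel-containing dimers. Its counts were low, with 5501 UMIs over all kept cells, and 14 of its 17 classes could be fitted. Among these its highest WT level was in the B cell-like class, at 48.1 and 42.4 CPM in YAP1 heterozygote and 61.6 and 42.1 CPM in WT libraries, which overlapped. The mature neutrophil-like class had 5.19 and 6.61 CPM in YAP1 heterozygote libraries and 23.7 and 7.46 CPM in WT libraries (-1.35, SE 0.42; -0.38 without WT replicate 1). Of the 14 classes, 13 were below 0 and 6 had both YAP1 heterozygote libraries lowest, but the median fold change of -0.33 became -0.06 without WT replicate 1.

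Nfkbiz (chr16:55811375-55838899, minus strand) encodes IκBζ, a nuclear IκB protein that helps NF-κB switch on late inflammatory genes. The basophil or mast cell-like class was again the highest fitted class, with 1060.2 and 737 CPM in YAP1 heterozygote libraries and 2245 and 1403 CPM in WT libraries (-1.11, SE 0.25; -0.71 without WT replicate 1). The megakaryocyte-like class had 29.9 and 26.2 CPM in YAP1 heterozygote libraries, against 70.1 and 49.1 CPM in WT libraries (-1.08, SE 0.20; -0.83 without WT replicate 1). In both classes the WT libraries stood above the YAP1 heterozygote libraries. Mature neutrophil-like cells had 419 and 406 CPM in YAP1 heterozygote libraries and 1068 and 432 CPM in WT libraries. WT replicate 2 lay close to the YAP1 heterozygote libraries there, and the fold change of -0.81 became -0.11 without WT replicate 1. Monocyte-like cells, with 96.02 and 81.1 CPM in YAP1 heterozygote and 227 and 77.5 CPM in WT libraries, overlapped. Over the 17 classes the median was -0.51 with all libraries and -0.09 without WT replicate 1.

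Nfkbid (chr7:30421732-30428746, plus strand) encodes IκBNS, a nuclear IκB protein known for its part in lymphocyte development. It was lower in both YAP1 heterozygote libraries in 11 of 16 classes fitted. B cell precursor-like cells had 32.1 and 29.3 CPM in YAP1 heterozygote libraries and 66.6 and 44.3 CPM in WT libraries (-0.86, SE 0.17; -0.56 without WT replicate 1). T cell-like cells had 38.2 and 35.03 CPM in YAP1 heterozygote libraries, against 64.1 and 56.2 CPM in WT libraries (-0.71, SE 0.17; -0.63 without WT replicate 1). In the basophil or mast cell-like class the levels were 71.6 and 45.7 CPM in YAP1 heterozygote and 109.7 and 101 CPM in WT libraries (-0.89, SE 0.21; -0.80 without WT replicate 1). The WT libraries lay close together in T cell-like and basophil or mast cell-like cells and less so in the precursors. In neutrophil precursor-like cells, where the gene was low, 15.6 and 17.6 CPM in YAP1 heterozygote libraries stood beside 16.99 and 15.3 CPM in WT libraries.

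Bcl3 (chr7:19808462-19822770, minus strand), a nuclear IκB protein that binds p50 and p52 dimers, did not share the pattern. Mature neutrophil-like cells had 38.1 and 45.99 CPM in YAP1 heterozygote libraries and 49.6 and 41.3 CPM in WT libraries (-0.08, SE 0.16). Monocyte-like cells had 24.7 and 20.03 CPM in YAP1 heterozygote libraries and 23.4 and 18.1 CPM in WT libraries. The groups overlapped in both classes. Of 12 classes fitted, 6 lay below 0 and 6 above. Among these 12, only B cell precursor-like cells had both YAP1 heterozygote libraries lowest, with 4.56 and 3.29 CPM from 22 and 20 UMIs, against 7.28 and 8.16 CPM from 43 and 44 UMIs in WT libraries. Genes on the opposite strand overlap Bcl3 and Nfkb2 and the sources used here do not state whether counting used strand, so some of their reads may belong to those genes.

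Tnfaip3 (chr10:19000910-19015657, minus strand) encodes A20, which edits ubiquitin chains and shuts signalling off above the IκB kinase. It had the lowest median fold change of the 10 genes, -1.28 over 17 classes, and -0.72 without WT replicate 1. Both YAP1 heterozygote libraries were below both WT libraries in 16 of 17 classes, with an overlap in neutrophil precursor-like cells alone (8.08 and 4.299 CPM in YAP1 heterozygote, 17.3 and 6.16 CPM in WT libraries).

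NK cell-like and T cell-like cells had both WT libraries well above both YAP1 heterozygote libraries for Tnfaip3. NK cell-like cells had 337 and 227 CPM in YAP1 heterozygote libraries and 752 and 595 CPM in WT libraries (-1.28, SE 0.21; -1.12 without WT replicate 1). T cell-like cells had 338 and 282 CPM in YAP1 heterozygote libraries and 779 and 544 CPM in WT libraries (-1.09, SE 0.17; -0.83 without WT replicate 1). The T cell difference held in both clusters of the class. The cluster led by Ccl5 and Il2rb had 318 and 285 CPM in YAP1 heterozygote libraries and 774 and 539 CPM in WT libraries, and the cluster led by Cd8b1 and Tcf7 had 371 and 279 CPM in YAP1 heterozygote libraries and 789.8 and 551 CPM in WT libraries. B cell-like cells had 46.5 and 44.4 CPM in YAP1 heterozygote libraries, against 139 and 69.5 CPM in WT libraries (-1.19, SE 0.25; -0.65 without WT replicate 1). The 2 B cell clusters, too, each had both YAP1 heterozygote libraries lowest.

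Transcripts of 8 neutrophil genes, which lymphoid cells do not make, were lower in both YAP1 heterozygote libraries of NK cell-like cells and differed less in T cell-like cells. In NK cell-like cells they summed to 3072 and 3098 CPM in YAP1 heterozygote libraries and 8612 and 20678 CPM in WT libraries, with 8 of 8 lower in both YAP1 heterozygote libraries. Between the WT libraries the order was opposite to that of Tnfaip3, at 752 and 595 CPM. WT replicate 1 was the highest library for 1 of the 8 genes. In T cell-like cells the sum was 3016 and 2886 CPM in YAP1 heterozygote and 3998 and 2949 CPM in WT libraries, with 4 of 8 lower. None of the 8 was at 0 in either class. Hemoglobin transcripts in T cell-like cells were higher in YAP1 heterozygote libraries, at 2041 and 2593 CPM, against 48.5 and 189.6 CPM in WT libraries, with none of the 4 genes at 0. In B cell-like cells the sum was 3688 and 4120.3 CPM in YAP1 heterozygote and 8656 and 4642 CPM in WT libraries, highest in WT replicate 1 for 8 of 8 genes. The part of these transcripts in the differences was not tested.

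Among myeloid cells the basophil or mast cell-like class had the highest Tnfaip3, with 1030.4 and 618 CPM in YAP1 heterozygote libraries and 1841 and 1332 CPM in WT libraries (-1.03, SE 0.25; -0.76 without WT replicate 1). Mature neutrophil-like cells had 24.4 and 18.2 CPM in YAP1 heterozygote libraries and 353 and 55.6 CPM in WT libraries, the lowest fold change of all pairs (-3.19, SE 0.65). The WT libraries differed 6.35-fold, more than WT replicate 2 differed from either YAP1 heterozygote library, and the value without WT replicate 1 was -1.42. Monocyte-like cells had 25.8 and 24.4 CPM in YAP1 heterozygote libraries and 187 and 39.4 CPM in WT libraries (-2.17; -0.65 without WT replicate 1). Plasmacytoid dendritic cell-like cells had 55.8 and 49.6 CPM in YAP1 heterozygote libraries and 293 and 86.6 CPM in WT libraries (-1.84; -0.71 without WT replicate 1). Nonclassical monocyte-like cells had 78.7 and 85.7 CPM in YAP1 heterozygote libraries and 215 and 161 CPM in WT libraries (-1.21; -0.93 without WT replicate 1), where WT replicate 2 was nearer to WT replicate 1 than to the YAP1 heterozygote libraries. The 8 neutrophil transcripts summed there to 104318 and 118146 CPM in YAP1 heterozygote and 186928 and 87584 CPM in WT libraries. In monocyte-like cells they summed to 11105 and 7521 CPM in YAP1 heterozygote and 14317 and 9042 CPM in WT libraries. WT replicate 1 was the highest library for 7 of the 8 genes in both classes. Their part in the differences of these classes was not tested.

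The macrophage-like class had 45.1 and 70.3 CPM of Tnfaip3 in YAP1 heterozygote libraries and 235 and 245 CPM in WT libraries (-1.93, SE 0.30; -1.84 without WT replicate 1). These values rest on 15 and 44 UMIs in YAP1 heterozygote libraries and 39 and 31 UMIs in WT libraries. The class was shallow, with median UMIs per cell of 1687 and 2236 in YAP1 heterozygote and 1598 and 1058 in WT libraries, and it carried neutrophil transcripts at 225173 and 219421 CPM in YAP1 heterozygote and 233113 and 148977 CPM in WT libraries. Hemoglobin transcripts in it were at 4559 and 10989 CPM in YAP1 heterozygote and 591 and 277 CPM in WT libraries, with none of the 4 genes at 0. The part of these transcripts in the Tnfaip3 difference was not tested.

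The group 2 innate lymphoid cell-like class was too small to be fitted, with 11 and 10 YAP1 heterozygote and 20 and 24 WT cells, but had the highest levels of the gene. Tnfaip3 was at 1279.6 and 1169 CPM there in YAP1 heterozygote libraries and 3797 and 3855 CPM in WT libraries. Nfkbia was at 1259 and 1686 CPM in YAP1 heterozygote libraries and 3237 and 2865 CPM in WT libraries. Nfkbiz was at 713 and 843 CPM in YAP1 heterozygote libraries and 1953 and 1779 CPM in WT libraries. Both WT libraries were well above both YAP1 heterozygote libraries for each of the 3 genes, and they were close to each other. Nfkb1 was at 839 and 734 CPM in YAP1 heterozygote libraries and 1379 and 633 CPM in WT libraries, which overlapped.

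HSPC-like cells had 34.2 and 14.4 CPM of Tnfaip3 in YAP1 heterozygote libraries and 84.7 and 53.2 CPM in WT libraries (-1.51, SE 0.29; -1.14 without WT replicate 1). Megakaryocyte-like cells had 21.99 and 27.7 CPM in YAP1 heterozygote libraries, against 85.2 and 44.2 CPM in WT libraries (-1.36, SE 0.28; -0.84 without WT replicate 1). In both classes the groups did not overlap. The 8 neutrophil transcripts summed to 7015 and 7839 CPM in YAP1 heterozygote and 12284 and 5566 CPM in WT megakaryocyte-like cells. WT replicate 1 was the highest library for 7 of the 8 genes there. In HSPC-like cells the sums were 19289 and 7215 CPM in YAP1 heterozygote and 14126 and 14837 CPM in WT libraries. Their part in the differences of these classes was not tested.

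Nfkb1 (chr3:135584655-135691547, minus strand) encodes p105, the precursor of the p50 subunit and itself an inhibitor. It was the most even of the subunits between genotypes. Its median fold change was -0.02 over 17 classes, with 9 below 0 and 8 above, and the groups overlapped in 14. Conventional dendritic cell-like cells, its highest fitted class in WT libraries, had 278 and 226 CPM in YAP1 heterozygote libraries and 299 and 249.1 CPM in WT libraries (-0.07, SE 0.17). Mature neutrophil-like cells had 77.7 and 70.5 CPM in YAP1 heterozygote libraries and 72.2 and 65.2 CPM in WT libraries (0.13, SE 0.13). WT replicate 1 did not stand out in either class, although Nfkbia and Tnfaip3 were far higher in that library in the same neutrophils. In B cell-like cells 218 and 196 CPM in YAP1 heterozygote libraries stood beside 227 and 206 CPM in WT libraries. The macrophage-like class overlapped too, with 111 and 133 CPM in YAP1 heterozygote libraries and 127 and 269 CPM in WT libraries, the highest value in WT replicate 2 resting on 34 UMIs. The groups were apart in HSPC-like and nonclassical monocyte-like cells, where both YAP1 heterozygote libraries were higher, and in NK cell-like cells, where both were lower.

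Nfkb2 (chr19:46304320-46312385, plus strand) encodes p100, the precursor of p52 in the noncanonical arm of the pathway. Among the fitted classes it was highest in the B cell-like class, where the groups overlapped at 118 and 105 CPM in YAP1 heterozygote and 109 and 105 CPM in WT libraries. T cell-like and NK cell-like cells had it lower in both YAP1 heterozygote libraries. T cell-like cells had 33.8 and 35.5 CPM in YAP1 heterozygote libraries and 58.4 and 54.9 CPM in WT libraries (-0.69, SE 0.17; -0.67 without WT replicate 1). NK cell-like cells had 30.7 and 25.2 CPM from 13 and 12 UMIs in YAP1 heterozygote libraries and 77.4 and 65.9 CPM from 46 and 29 UMIs in WT libraries (-1.38, SE 0.33; -1.27 without WT replicate 1). In both of these classes the WT libraries lay close together. Erythroid progenitor-like cells had 8.20 and 6.96 CPM in YAP1 heterozygote libraries, against 23.98 and 13.5 CPM in WT libraries (-1.21, SE 0.26; -0.86 without WT replicate 1). Both YAP1 heterozygote libraries were lowest in 11 of 17 classes.

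Rel (chr11:23736847-23770970, minus strand) encodes c-Rel, the subunit most used in lymphocytes. In 16 of 17 classes both YAP1 heterozygote libraries were below both WT libraries, with smaller differences than for Tnfaip3 (median -0.64; -0.29 without WT replicate 1). Its highest fitted class was the B cell-like one, with 289.8 and 277 CPM in YAP1 heterozygote libraries and 443 and 332 CPM in WT libraries (-0.45, SE 0.14; -0.26 without WT replicate 1). B cell precursor-like cells had 114 and 102.3 CPM in YAP1 heterozygote libraries and 197 and 158 CPM in WT libraries (-0.72, SE 0.12; -0.58 without WT replicate 1). The groups were separate in each of the 3 precursor clusters. The cluster led by Rag1 had 213 and 195 CPM in YAP1 heterozygote and 333 and 274 CPM in WT libraries, the cluster led by Myl4 and Vpreb3 had 76.2 and 67.04 CPM in YAP1 heterozygote and 144 and 121 CPM in WT libraries, and the cluster led by Vpreb1 and Igll1 had 89.05 and 82.4 CPM in YAP1 heterozygote and 156 and 96.8 CPM in WT libraries. WT replicate 2 came nearest to the YAP1 heterozygote libraries in the cluster led by Vpreb1 and Igll1. The 8 neutrophil transcripts summed to 7261 and 4804 CPM in YAP1 heterozygote and 7832 and 10579 CPM in WT precursors, with 6 of 8 lower in both YAP1 heterozygote libraries and none at 0. Their part in the Rel difference was not tested.

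The 2 YAP1 heterozygote libraries were close to each other for Rel in most other classes as well. Mature neutrophil-like cells had 62.5 and 63.6 CPM in YAP1 heterozygote libraries and 152 and 77.8 CPM in WT libraries (-0.82, SE 0.24; -0.34 without WT replicate 1). Conventional dendritic cell-like cells had 202 and 204 CPM in YAP1 heterozygote libraries and 319.7 and 239.8 CPM in WT libraries (-0.41, SE 0.17; -0.25 without WT replicate 1). Basophil or mast cell-like cells had 86.5 and 86.98 CPM in YAP1 heterozygote libraries and 183 and 116 CPM in WT libraries (-0.88, SE 0.21; -0.49 without WT replicate 1). WT replicate 2 was the WT library nearer to the YAP1 heterozygote values in each of these. The overlap was in NK cell-like cells, with 73.1 and 52.5 CPM in YAP1 heterozygote libraries and 103 and 40.9 CPM in WT libraries. The lowest Rel fold change, -2.03 in the plasma cell-like class, rests on 6 and 1 UMIs in YAP1 heterozygote libraries and 17 and 36 UMIs in WT libraries.

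Relb (chr7:19606217-19629438, minus strand) encodes the partner of p52 in the noncanonical arm. Its levels were low and its differences small. B cell-like cells, its highest fitted class, had 68.6 and 64.8 CPM in YAP1 heterozygote libraries and 54.1 and 63.1 CPM in WT libraries (0.17, SE 0.15), with both YAP1 heterozygote libraries above. Mature neutrophil-like cells had 6.79 and 8.08 CPM in YAP1 heterozygote libraries and 18.5 and 9.11 CPM in WT libraries (-0.85, SE 0.28; -0.33 without WT replicate 1). The largest separation was in basophil or mast cell-like cells, with 7.45 and 6.15 CPM from 18 and 7 UMIs in YAP1 heterozygote libraries and 15.9 and 14.00 CPM from 37 and 25 UMIs in WT libraries (-1.18, SE 0.35; -1.06 without WT replicate 1). Both YAP1 heterozygote libraries were lowest in 8 of 16 classes and highest in 3.

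**Figure D3:**
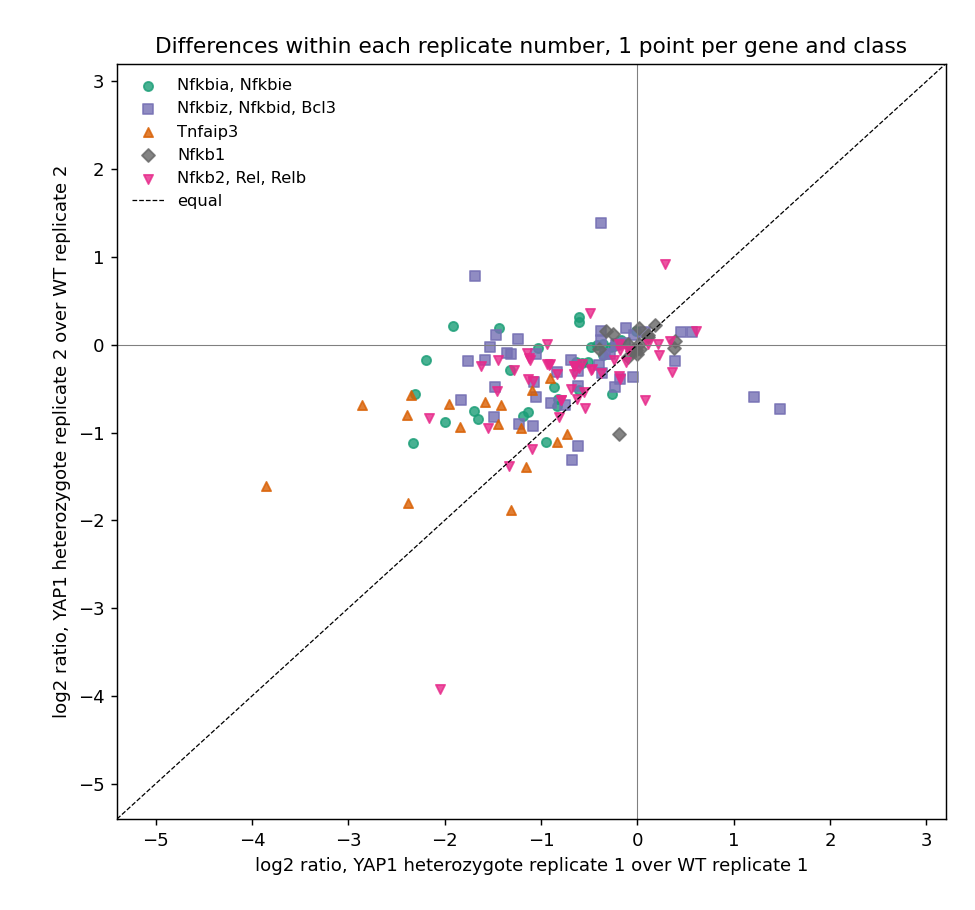
Log2 ratio of YAP1 heterozygote over WT within replicate 1 (horizontal) and within replicate 2 (vertical), 1 point per gene and class for the 160 pairs, coloured by gene or gene group; the dashed line marks equal ratios. Most points lie left of and below 0, with 138 pairs below 0 within replicate 1 and 123 within replicate 2, and the points spread further to the left than downward.

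The plot of within-replicate ratios sets the male-type libraries against each other and the female-type libraries against each other. For Tnfaip3 all 17 classes were below 0 in both replicates, with medians of -1.45 within replicate 1 and -0.91 within replicate 2. For Nfkbia 17 classes were below 0 within replicate 1 and 16 within replicate 2, with medians of -1.03 within replicate 1 and -0.52 within replicate 2. For Rel 17 classes were below 0 within replicate 1 (median -0.79) and 16 within replicate 2 (median -0.29). Nfkb1 had 9 classes below 0 within replicate 1 and 8 within replicate 2, with medians within 0.01 of 0. Nfkbie was below 0 in 14 of 14 classes within replicate 1 and in 8 of 14 within replicate 2.

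The share of cells with at least 1 UMI was compared after each cell had been thinned to 2000 UMIs, and cells under that depth were left out. In the basophil or mast cell-like class 12 YAP1 heterozygote and 5 WT cells were left out. Nfkbia was then found in 80.3 and 69.4% of YAP1 heterozygote cells and 96.8 and 92.02% of WT cells, and unthinned in 93.9 and 88.7% of YAP1 heterozygote and 98.4 and 97.2% of WT cells. The thinned Wilson intervals at the 95% level were 75.04 to 84.7% and 61.5 to 76.4% in YAP1 heterozygote libraries and 94.2 to 98.2% and 87.6 to 94.96% in WT libraries, so that the genotypes did not overlap. These intervals cover counting error only.

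Tnfaip3 was found in fewer lymphoid cells of both YAP1 heterozygote libraries. Of NK cell-like cells, 32 of 79 and 32 of 105 YAP1 heterozygote cells (40.5 and 30.5%) and 73 of 106 and 60 of 91 WT cells (68.9 and 65.9%) had a UMI, with 20 YAP1 heterozygote and 9 WT cells left out. Unthinned shares were 55.8 and 43.2% in YAP1 heterozygote and 88.4 and 86.2% in WT libraries. Of T cell-like cells, 47.1 and 42.5% had a UMI in YAP1 heterozygote libraries and 72.8 and 61.9% in WT libraries, with 31 YAP1 heterozygote and 24 WT cells left out. Unthinned, the shares were 72.5 and 63.9% in YAP1 heterozygote and 88.7 and 82.9% in WT libraries. The intervals of the genotypes stayed apart in both classes. With 2 libraries against 2, an exact permutation test cannot give a p below 0.333.

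Mature neutrophil-like cells differed both in how many cells held a transcript and in how many UMIs a positive cell held. Nfkbia was found in 49.2 and 36.8% of YAP1 heterozygote cells and 74.7 and 41.03% of WT cells (unthinned 71.3 and 52.9% in YAP1 heterozygote and 84.8 and 58.5% in WT cells), with 608 YAP1 heterozygote and 637 WT cells left out. Positive cells held 2.06 and 2.13 UMIs on average in YAP1 heterozygote libraries and 6.59 and 2.98 in WT libraries. WT replicate 1 was apart in both measures and WT replicate 2 lay between the YAP1 heterozygote libraries in the share. Tnfaip3 was found in 4.13 and 2.66% of YAP1 heterozygote and 36.9 and 8.35% of WT mature neutrophil-like cells (unthinned 7.67 and 5.35% in YAP1 heterozygote and 49.5 and 12.9% in WT cells). In monocyte-like cells the Tnfaip3 shares were 5.34 and 5.14% in YAP1 heterozygote and 29.6 and 9.06% in WT libraries (unthinned 27.8 and 20.9% in YAP1 heterozygote and 61.5 and 32.3% in WT cells), with 35 YAP1 heterozygote and 28 WT cells left out. In each library both Tnfaip3 shares lay inside the Wilson interval of erythroblast-like cells of that library. These intervals were 0.506 to 14.5% and 0.173 to 5.35% in YAP1 heterozygote and 9.75 to 56.6% and 2.62 to 15.9% in WT libraries. Both sets of shares are therefore not separated from the erythroblast-like level. The WT replicate 1 interval comes from a class of 15 cells before thinning. It is so wide that it cannot show these shares to be background.

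Rel was found in 38.3 and 38.3% of YAP1 heterozygote B cell-like cells and 52.6 and 45.2% of WT B cell-like cells, and in 25.8 and 24.7% of YAP1 heterozygote and 36.1 and 30.2% of WT B cell precursor-like cells. Unthinned, the shares were 50.3 and 47.6% in YAP1 heterozygote and 58.2 and 56.3% in WT B cell-like cells, and 44.6 and 40.4% in YAP1 heterozygote and 55.2 and 54.03% in WT precursors. In these 2 classes 362 and 170 YAP1 heterozygote cells and 364 and 245 WT cells were left out. For Nfkb1 the B cell-like shares overlapped, at 33.4 and 29.9% in YAP1 heterozygote and 32.7 and 32.02% in WT libraries (unthinned 43.2 and 40.2% in YAP1 heterozygote and 41.4 and 45.99% in WT cells).

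Erythroblast-like cells, filled with hemoglobin and with little other transcription, give the level that free RNA can leave in a droplet. Their median depth was 5170.0 and 5218 UMIs in YAP1 heterozygote and 3494 and 4646 UMIs in WT libraries, against 4565 and 3563 UMIs in YAP1 heterozygote and 4203 and 4166 UMIs in WT NK cell-like cells. Tnfaip3 was found in 1 of 35 and 1 of 102 YAP1 heterozygote and 3 of 11 and 4 of 60 WT erythroblast-like cells after thinning, and Nfkbia in 3 of 35 and 9 of 102 YAP1 heterozygote and 3 of 11 and 4 of 60 WT cells. In percent the Nfkbia shares were 8.57 and 8.82% in YAP1 heterozygote and 27.3 and 6.67% in WT cells, beside 15.2 and 16.2% in YAP1 heterozygote and 49.1 and 34.1% in WT NK cell-like cells (unthinned 34.9 and 27.1% in YAP1 heterozygote and 73.2 and 48.9% in WT cells). The intervals of both classes overlapped in every library except WT replicate 2, so the NK cell shares of Nfkbia are not separated from this background. For Tnfaip3 the NK cell intervals lay above the erythroblast-like ones in each library. The shares of Tnfaip3 in neutrophil precursor-like cells, 1.16 and 1.01% in YAP1 heterozygote and 3.59 and 1.13% in WT libraries, lay at or below the erythroblast-like shares of their own library or within their interval. Their median depth was 20420 and 18750 UMIs in YAP1 heterozygote and 19200 and 20320 UMIs in WT libraries. Thinning cuts free RNA more in such deep cells, and the erythroblast-like shares rest on few positive cells. The comparison therefore cannot show the precursor shares to be background. Only 15 erythroblast-like cells came from WT replicate 1, and their Nfkbia level of 903 CPM, against 90.2 and 60.7 CPM in YAP1 heterozygote libraries and 100.5 CPM in WT replicate 2, rests on 67 UMIs, of which 42 came from 1 cell. Tnfaip3 in erythroblast-like cells was at 12.3 and 8.67 CPM in YAP1 heterozygote and 243 and 42.7 CPM in WT libraries, and 1 cell gave 12 of the 18 UMIs in WT replicate 1 and 10 of the 17 in WT replicate 2.

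The wider pathway was described with 83 genes that are not members, in 5 lists. Over all genes of a class the median fold change lay between -0.01 and 0.02. The inducible targets other than cytokines (14 genes) came nearest to the members: 177 of 209 pairs of gene and class were below 0, the median was -0.41, and both YAP1 heterozygote libraries were lowest in 51.7% of pairs, against 16.8% of all genes fitted. Ccrl2, an atypical chemokine receptor on activated myeloid cells, was the only target that passed the test. It fell in HSPC-like cells, with 10.9 and 8.76 CPM in YAP1 heterozygote libraries and 27.8 and 27.1 CPM in WT libraries (log2 fold change -1.48, SE 0.21, edgeR adjusted p = 0.0338). Without WT replicate 1 the fold change was -1.47 and the adjusted p was 0.0972. Over its 16 classes Ccrl2 was below 0 in 16, with a median of -1.16. Cd83, a marker of activated antigen-presenting cells, was below 0 in 12 of 12 classes with a median of -1.30, without passing the test in any.

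The medians of the other lists lay near 0, but both YAP1 heterozygote libraries were lowest more often than in the 16.8% of all genes fitted. The shares were 21.0% for kinases and adaptors, 31.7% for ubiquitin editors and other brakes, 31.25% for Rela, Nfkbib and Nfkbil1, and 27.2% for receptors. In the same order, both were highest in 48 of 404, 25 of 303, 5 of 48 and 29 of 173 pairs. The kinases and adaptors upstream of NF-κB (28 genes), among them the IκB kinases Ikbkb and Chuk and the adaptor Myd88, had a median of -0.05 over 404 pairs, none of which passed the test in either direction. Malt1, the protease of antigen-receptor signalling, was the lowest of these, with a median of -0.44 and 16 of 17 classes below 0. The ubiquitin editors and other brakes (20 genes) had a median of -0.08 over 303 pairs, again with none passing the test. Zc3h12a, the RNase regnase-1 and itself an NF-κB target, was the lowest, with a median of -0.91 and 16 of 16 classes below 0. Rela, the most studied subunit, had a median of -0.18, and the list of Rela, Nfkbib and Nfkbil1 had -0.07 over 48 pairs. The receptors (18 genes) had a median of -0.04 over 173 pairs, and Cd14, the lipopolysaccharide co-receptor, was the only one that passed the test. It fell in immature neutrophil-like cells, with 49.5 and 37.9 CPM in YAP1 heterozygote libraries and 76.5 and 74.0 CPM in WT libraries (log2 fold change -0.75, SE 0.11, edgeR adjusted p = 0.0298). That call was lost without YAP1 heterozygote replicate 1 (adjusted p = 0.0920) or replicate 2 (0.401). Malt1, Zc3h12a, Cd83 and Rela were picked after their values were seen.

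Immediate early genes, which handling of tissue also induces, were set beside the members. Of 310 pairs from 20 such genes 189 were below 0 (median -0.10), and both YAP1 heterozygote libraries were lowest in 38.1%. Atf3 and Nr4a1 in HSPC-like cells and Nr4a1 and Nr4a3 in T cell-like cells were lower and passed the test (edgeR adjusted p = 0.0338, 0.0338, 0.0218 and 0.0390). Without WT replicate 1 the HSPC calls were lost (adjusted p = 0.121 for Atf3 and 0.0886 for Nr4a1). Their summed level did not follow the members in neutrophils: mature neutrophil-like cells had 15118 and 13882 CPM in YAP1 heterozygote libraries and 11948 and 12213 CPM in WT libraries. It did in plasmacytoid dendritic cell-like cells, with 9023 and 8281 CPM in YAP1 heterozygote libraries and 13905 and 9176 CPM in WT libraries, where WT replicate 1 was the highest for 18 of 20 genes. In T cell-like cells the sum was 6708 and 6410.1 CPM in YAP1 heterozygote and 7513 and 7647 CPM in WT libraries. The macrophage-like sum was 8200.3 and 9409 CPM in YAP1 heterozygote and 13195 and 12747 CPM in WT libraries, with 13 of 20 genes lower in both YAP1 heterozygote libraries. B cell-like cells had 8815 and 9333 CPM in YAP1 heterozygote and 10546 and 10990.0 CPM in WT libraries, with 10 of 20 lower. In these 3 classes, as in the erythroid progenitor-like one, both YAP1 heterozygote sums were below both WT sums. No list gene was at 0 in these classes, and the part of tissue handling in the differences was not tested.

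Across the 17 classes the members' WT levels followed different genes. Pearson correlations of log2(CPM + 1) over the class means of the WT libraries were computed against 6031 genes, and since the classes share libraries they are given as a description. The closest genes to Nfkbia were Acod1 (0.80), which makes itaconate in activated myeloid cells, Arrdc3 (0.80) and the chemokine gene Ccl6 (0.79). Tnfaip3 was closest to Junb (0.88), an AP-1 subunit, Ngly1 (0.88) and Rbl2 (0.85), and Nfkbiz to Ifrd1 (0.92), Pnpla7 (0.91) and Plk3 (0.87). Rel was closest to Pold4 (0.91), Tor1aip1 (0.91) and Zfp217 (0.90). Nfkb1 was closest to Arf3 (0.92), Crtc2 (0.91) and Eif4g3 (0.91), and Nfkb2 to Malat1 (0.89), Tulp4 (0.89) and Trim26 (0.88). These genes were picked as the highest in WT libraries. Over the YAP1 heterozygote class means, in the same gene order, Nfkbia had 0.72, 0.73 and 0.66. Tnfaip3 had 0.68, 0.80 and 0.76, and Nfkbiz 0.67, 0.78 and 0.82. Rel had 0.94, 0.91 and 0.93, Nfkb1 0.91, 0.81 and 0.90, and Nfkb2 0.83, 0.78 and 0.82.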

How the data were processed

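Nucleated bone marrow cells from 2 YAP1 heterozygote and 2 WT libraries were sequenced with a 3′ droplet kit (version 3.1, per the labels' protocols). The deposited values are whole UMI counts per gene and cell, made by the authors with Cell Ranger 5.0.0, per the file headers. Cell Ranger 3.0.0 and Seurat 4.3.0, with the builds GRCm38 and mm10, are named per the submitters' processing notes. Replicates were not pooled.

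A barcode was kept from 500 UMIs and 200 genes up, with no more than 10% of UMIs mitochondrial, and doublets were called with Scrublet in scanpy 1.11.5 and removed (3.42% to 4.39% of cells per library). Cells were clustered on 2000 variable genes, 30 components and 15 neighbours (leidenalg 0.10.2, resolution 1.0), without 2565 genes that included the 10 members, the 5 pathway lists and the immediate early genes, so cell names are rebuilt here and are not the authors'. Classes were named from marker lists. Counts were summed per class and library, and edgeR 4.0.16 (R 4.3.3) quasi-likelihood fits with filterByExpr, TMM and Benjamini-Hochberg adjustment over all genes of a class used a threshold of 0.05. DESeq2 1.42.0 was an alternative. The fits were tested on simulated data. CPM is a gene's UMIs per 1000000 UMIs of the class in that library. Thinned shares have 95% Wilson intervals, which cover counting error only. Coordinates are GRCm38 and sequences RefSeq GRCm38.p6. Figures were drawn with matplotlib 3.10.9.

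All 10 members are named in the classes that reached 20 cells per library, of the pathway lists each gene that passed the test (up to 4 per class and list), and for 6 members the 3 genes of most similar WT pattern with a mean of at least 20 CPM. The members and lists were chosen with earlier results of these data known. Replicate numbers were not treated as pairs, since nothing in the labels says that a number marks a shared animal or day, although sex-linked transcripts matched between libraries of the same number. Alternatives were library totals, no filter, DESeq2, a replicate block, each library left out, kept doublets, a 5% mitochondrial limit, Leiden resolution 2.0, the top cell left out, and other thinning depths. The removal of the neutrophil cluster mostly of WT replicate 1 was added after the data were seen.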

Additional observations from a re-analysis of the deposited data

Results flagged for a closer look

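In 8 pairs of gene and class both YAP1 heterozygote libraries were above both WT libraries, while other classes of the same gene had both below. Nfkb1 had 2 such classes. HSPC-like cells had 129 and 126 CPM in YAP1 heterozygote libraries and 113 and 108 CPM in WT libraries, and nonclassical monocyte-like cells had 212 and 199 CPM in YAP1 heterozygote libraries and 161 and 193 CPM in WT libraries. NK cell-like cells went the other way, with 172 and 189 CPM in YAP1 heterozygote libraries and 227 and 195 CPM in WT libraries.

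Nfkb2 had 1 such class, the nonclassical monocyte-like cells, with 65.1 and 59.4 CPM in YAP1 heterozygote libraries and 56.03 and 58.9 CPM in WT libraries, beside 11 classes with both YAP1 heterozygote libraries below. Relb had 3. Its levels were 68.6 and 64.8 CPM in YAP1 heterozygote and 54.1 and 63.1 CPM in WT B cell-like cells, 42.8 and 36.6 CPM in YAP1 heterozygote and 28.1 and 32.9 CPM in WT conventional dendritic cell-like cells, and 22.7 and 22.8 CPM in YAP1 heterozygote and 18.7 and 12.04 CPM in WT nonclassical monocyte-like cells. Bcl3 had 2, with 42.4 and 29.7 CPM in YAP1 heterozygote and 28.6 and 26.8 CPM in WT nonclassical monocyte-like cells and 27.4 and 21.1 CPM in YAP1 heterozygote and 19.9997 and 19.2 CPM in WT plasmacytoid dendritic cell-like cells. The difference between classes was not tested for any of the 4 genes, and both YAP1 heterozygote libraries were above both WT libraries in 15.2% of all genes fitted.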

How the results depend on the processing

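The 4 member pairs called in the main fit kept their direction under each setting, and the counts of calls depended on the fit. Over all 160 member pairs direction was less stable: 135 were below 0 with all libraries and 112 without WT replicate 1. With all libraries and the filter, 4 pairs of member and class were called lower and 2 pathway pairs were called. Without a filter on low counts the counts were 43 and 67, with DESeq2 9 and 11, with doublets kept 2 and 1, and at Leiden resolution 2.0 they were 10 and 4. Without the top cell of each library 7 pathway pairs were called. Leaving out each library in turn gave 7 to 69 member pairs and 9 to 122 pathway pairs, with a lone library assumed to vary like the other group. The cause was not tested. Library totals and a 5% mitochondrial limit gave 3 member pairs each.

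With the replicate number as a block 52 member pairs and 77 pathway pairs were called. The replicate number matched the sex type of the libraries, so the block also adjusts for sex. With only 2 pairs the replicate numbers do not show any further pairing. Calls over all genes rose with the block as well. Per class it called 2 to 278 genes and DESeq2 called 0 to 24. The main fit called 0 to 16 genes lower and 0 to 4 higher. The member counts under other settings are therefore not read as a gain over the background.

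Of 160 member fold changes, 66 moved by more than the replicate spread without WT replicate 1, and 20 without WT replicate 2. The gap between the WT libraries enters both that spread and the shift, so these counts are no separate measure of stability. Tnfaip3 in macrophage-like cells was -1.19 at resolution 2.0, where it was not called. Of 170 positive shares, 61 moved when cells were thinned to 1000 UMIs, 87 when they were not thinned, and 81 when at least 2 UMIs were required. Small classes limit what depth can show: Rel in YAP1 heterozygote plasma cell-like cells rests on 6 and 1 UMIs.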
